A study of Homo sapiens with 8 samples.

Results

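The plasminogen activator system was followed through 7 genes chosen by name: PLAU, PLAT, PLG, PLAUR, PLGRKT, SERPINE2 and SERPINF2. They are 7 of the 58206 genes in the count table, and 4 of them (PLAUR, PLGRKT, SERPINE2, SERPINF2) passed the expression filter and were tested. Of these 4, 0 passed edgeR's test between the groups, beside 19.2% of all tested genes. With so few genes, 0 calls do not set the members apart from that share. PLAU, PLAT and PLG had too few counts to be tested. Other genes of the plasmin pathway did pass it, among them the fibrinogen chains, the membrane protease gene MMP14, the vitronectin gene and the inhibitor genes SERPINA5 and CPB2.

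The RNA came from Alexander1 cells, an epithelial line from a human hepatocellular carcinoma. The 4 parental libraries carry the genotype wt (Axin1 -): in the scaffold protein Axin1 the region that docks GSK3 is deleted, and Wnt signalling is permanently on. The 4 restored-labelled libraries carry the genotype Axin1 +, a stable derivative expressing full-length Axin1 from Addgene plasmid #24928. The labels record retroviral delivery (VSVG) of that plasmid and clonal selection with hygromycin B, and attach this text to all 8 samples, so it is not stated whether the parental cells went through infection and selection. Effects of Axin1, of the virus, of the drug and of the growth of 1 clone cannot be told apart, and nothing in the labels says that replicates came from separate cultures, so p-values measure the spread between these libraries, which may be technical.

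Plasminogen is a circulating zymogen made mainly by hepatocytes. The urokinase-type activator (PLAU) and the tissue-type activator (PLAT) cut it to plasmin, a protease that dissolves fibrin and helps to degrade extracellular matrix. The urokinase receptor (PLAUR) holds urokinase at the cell surface beside integrins and vitronectin, and PLGRKT is a plasminogen receptor in the plasma membrane. Serpins restrain the cascade at both steps: SERPINE2 (protease nexin 1) blocks the activators and thrombin, and SERPINF2 (alpha-2-antiplasmin), a product of the liver, blocks plasmin. PLAU and PLAUR are known as genes that AP-1 factors can drive, and PLAUR has been described as responsive to Wnt signalling in colorectal tumours.

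Library totals ran from 11232951 to 15263761 counts in the parental group and from 12372436 to 26400782 in the restored-labelled group, so that 3 counts in a library stand for 0.108 to 0.267 CPM (counts scaled per 1e6 of the library's TMM-scaled total). AXIN1 (ENSG00000103126) was measured at 52.4 ± 3.49 CPM in the parental and 45.4 ± 5.13 in the restored-labelled libraries (SD, n = 4), with a log2 fold change of -0.21 (SE 0.12) and an edgeR adjusted p of 0.267. The AXIN1 mean was therefore not higher in the restored-labelled group, and this gene does not verify the label. A count over the whole gene does not separate the deleted from the full-length transcript. On the first principal component the parental libraries lay between -46.7 and -42.6 and the restored-labelled between 48.7 and 56.8, except restored-labelled replicate 1 at 22.2. Parental replicate 1 stood apart on the second component. Of 14289 tested genes, 2738 (19.2%) passed an adjusted p of 0.05 in edgeR, with 1485 higher and 1253 lower in the restored-labelled group, and the median log2 fold change was 0.0026. All 10 hepatocyte markers were detected, with a summed level of 23621 to 28069 CPM in the parental and 15492 to 18644 in the restored-labelled group, most of it SERPINA1. TTR reached no more than 21.2 CPM in any library. Of those 10 markers, 1 rose and 3 fell.

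Short stretches before RefSeq start sites are shown because the groups differ in a Wnt pathway component and PLAU and PLAUR are known AP-1 target genes. RefSeq promoter windows (GRCh38.p14) were used for 5 of the 7 members, in 8 windows, and PLAT and SERPINF2 were not searched. The 250 bases before each start site were searched on both strands for the TCF/LEF core CTTTG followed by any pair of letters drawn from A and T, and for the AP-1 letters TGANTCA. The capitals mark the match in each 29-base stretch, printed 5′ to 3′ on the gene's own strand.
PLAU, chr10:73910374-73910402, plus strand, 225 to 219 bases before the start: atgccctaggaCTTTGTTcccacaatcct
PLAU, chr10:73910549-73910577, plus strand, 50 to 44 bases before the start: aataagcccggCTTTGTTccatccactgg
PLGRKT, chr9:5438037-5438065, minus strand, 129 to 123 bases before the start: agtcgccgcggCTTTGAAtttgcctcttt
PLAUR, chr19:43670338-43670366, minus strand, 186 to 180 bases before the start: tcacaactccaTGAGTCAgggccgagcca

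A TCF/LEF match was present in 4199 of 35116 RefSeq windows of the same length (12%), and an AP-1 match in 2308 (6.57%). The PLG and SERPINE2 windows and the second PLAU window held none of these letters. A match is a string of letters and no evidence of binding. The PLAUR window lies within the 5′ UTR of longer annotated transcripts, and the PLAU window with the matches lies in an exon of C10orf55 on the other strand. That PLAU window also lies inside the annotated PLAU gene, whose span starts at 73909177, so it precedes an internal start site.

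PLAU, which encodes urokinase, was barely detected (ENSG00000122861, chromosome 10, 73909177 to 73917497, plus strand, GRCh38). Parental replicates 1 to 4 held 10, 7, 2 and 2 of its 57 counts, and the restored-labelled replicates held 31, 0, 2 and 3. In CPM these were 0.890, 0.474, 0.178 and 0.143 against 1.11, 0, 0.0986 and 0.117. Replicate 1 was the highest library of each group, and the groups overlapped. The group means were 0.421 ± 0.346 and 0.332 ± 0.523 CPM (SD, n = 4). With the counts of each group pooled, PLAU stood at 0.410 CPM in the parental (exact Poisson interval 0.254 to 0.627) and 0.419 in the restored-labelled group (0.294 to 0.580). These intervals cover counting error only.

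The PLAU value of the restored-labelled group rested on 1 library. Without restored-labelled replicate 1 its 3 other libraries held 5 counts, or 0.0862 CPM (interval 0.0280 to 0.201), below the parental interval. PLAU failed the expression filter. In a fit over every gene with a count, added after the values were seen, its log2 fold change was -0.13 (SE 0.71, edgeR adjusted p = 0.925) with all libraries and -2.20 (adjusted p = 0.0940) without that library. PLAU passed the adjusted threshold in neither fit. Without restored-labelled replicate 1 the groups did not overlap, at 0 to 0.117 CPM against 0.143 to 0.890 CPM in the parental libraries. The values nearest each other were 3 counts in restored-labelled replicate 4 and 2 counts in the less deeply sequenced parental replicate 4. Leaving out parental replicate 1 instead turned the log2 fold change to 0.47 (edgeR adjusted p = 0.676). These values rest on few counts. C10orf55, which shares 916 exonic bases with PLAU on the opposite strand, held 1 count in all.

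PLAT, the gene of the tissue-type activator, was rarer still (ENSG00000104368, chromosome 8, 42175233 to 42207724, minus strand). It had 18 counts: 2, 2, 0 and 3 in the parental and 3, 4, 2 and 2 in the restored-labelled libraries. The CPM values were 0.178, 0.135, 0 and 0.215 against 0.108, 0.330, 0.0986 and 0.0781, so that neither group was uniformly above the other. The means were 0.132 ± 0.0938 and 0.154 ± 0.118 CPM (SD, n = 4), and PLAT also failed the filter. Pooled over libraries, its interval ran from 0.0550 to 0.282 CPM in the parental and from 0.0639 to 0.229 in the restored-labelled group.

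PLG, the plasminogen gene itself, had hardly any counts in these liver-derived cells (ENSG00000122194, chromosome 6, 160702238 to 160753315, plus strand). Its only 2 counts were in parental replicate 2, at 0.135 CPM, and the other 7 libraries had 0. Over the 4 restored-labelled libraries, the count of 0 allows a level of up to 0.0349 CPM by the limit of 3 counts, and of up to 0.0429 CPM by the exact Poisson interval used for PLAU and PLAT. No fold is given, because both groups held fewer than 3 counts. Albumin (ALB) mRNA, another hepatocyte product, was present in every library but at very different levels: 46.7 CPM in parental replicate 1 against 159 to 208 in the other parental libraries, and 13.8 CPM in restored-labelled replicate 1 against 445 to 681 in the others of that group.

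PLAUR, the urokinase receptor gene, was detected in every library (ENSG00000011422, chromosome 19, 43646095 to 43670547, minus strand). The parental libraries measured 5.87, 5.75, 5.08 and 3.51 CPM in the order of their replicate numbers. The restored-labelled libraries measured 6.56, 6.69, 6.06 and 6.13 CPM. All 4 restored-labelled libraries were above all 4 parental ones, and the lowest value, in parental replicate 4, widened the gap between the means. The means were 5.05 ± 1.09 and 6.36 ± 0.312 CPM (SD, n = 4). The log2 fold change was 0.33 (SE 0.21, 95% interval -0.13 to 0.80), and edgeR gave an adjusted p of 0.297, which does not pass the threshold. A two-sided exact permutation test of the log2 level gave p = 0.0286, the smallest that the 70 labelings allow.

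PLAUR was the 1 of the 4 tested members whose groups did not overlap, against 3422 of the 14289 tested genes (23.9%). Of all tested genes, 47.2% had a larger absolute log2 fold change than PLAUR. Without parental replicate 4 its log2 fold change fell to 0.19. Among the 20 tested genes on each side of PLAUR (chromosome 19, 42268537 to 44448578), 12 of 40 rose, 0 fell and the median log2 fold change was 0.51. Whether their shift has a part in the PLAUR value was not tested. Across the table, 10.4% of tested genes rose and 8.77% fell. Neighbours of the other members had medians between -0.21 (SERPINE2) and 0.08 (PLG). The genes whose log2 CPM followed PLAUR most closely over the 8 libraries were SETD4 (Pearson r = 0.952), LDAF1 (0.949) and KCNN1 (0.945), the highest of 13481 genes compared, given as a description. These r values span both groups, and the libraries share their scaling.

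PLGRKT, the plasminogen receptor gene, differed between the groups by less than the spread between replicates (ENSG00000107020, chromosome 9, 5357973 to 5437878, minus strand). It measured 6.67, 6.63, 8.20 and 7.16 CPM in the parental and 6.67, 7.18, 8.67 and 7.57 CPM in the restored-labelled libraries. Replicate 3 was highest in each group, and the ranges overlapped almost wholly. From means of 7.17 ± 0.727 and 7.52 ± 0.850 CPM (SD, n = 4), the log2 fold change was 0.07 (SE 0.18, 95% interval -0.32 to 0.46, edgeR adjusted p = 0.808).

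SERPINE2, the inhibitor of the activators, varied more between replicates than between groups (ENSG00000135919, chromosome 2, 223975112 to 224039319, minus strand). It measured 17.9, 38.5, 38.2 and 23.8 CPM in the parental and 47.0, 31.9, 26.2 and 26.7 CPM in the restored-labelled libraries. Replicate 1 was the lowest parental and the highest restored-labelled library. Its means were 29.6 ± 10.4 and 33.0 ± 9.71 CPM (SD, n = 4), and its log2 fold change of 0.15 (SE 0.27, 95% interval -0.43 to 0.74, edgeR adjusted p = 0.722) turned to -0.02 without parental replicate 1 and to -0.07 without restored-labelled replicate 1.

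SERPINF2, which encodes the plasmin inhibitor alpha-2-antiplasmin, was the most abundant member (ENSG00000167711, chromosome 17, 1742836 to 1755268, plus strand). Its levels were 38.5, 60.3, 50.8 and 44.7 CPM in the parental and 32.4, 54.2, 50.9 and 36.2 CPM in the restored-labelled libraries. Replicate 1 was lowest and replicate 2 highest in both groups, which overlapped. The means of 48.6 ± 9.26 and 43.4 ± 10.7 CPM (SD, n = 4) gave a log2 fold change of -0.17 (SE 0.20, 95% interval -0.60 to 0.27, edgeR adjusted p = 0.590).

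In all, 0 of the 4 tested members passed the adjusted threshold, against 19.2% of all tested genes, and 0 of 4 had an unadjusted p under 0.05 by edgeR, DESeq2 or limma-voom. Across the table, 4786 genes had an unadjusted edgeR p under 0.05. With only 4 genes, 0 calls do not set the members apart from the share over all genes. These results do not show that the 4 levels are equal: the intervals reached log2 differences of 0.80 for PLAUR and 0.74 for SERPINE2.

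**Figure D1:**
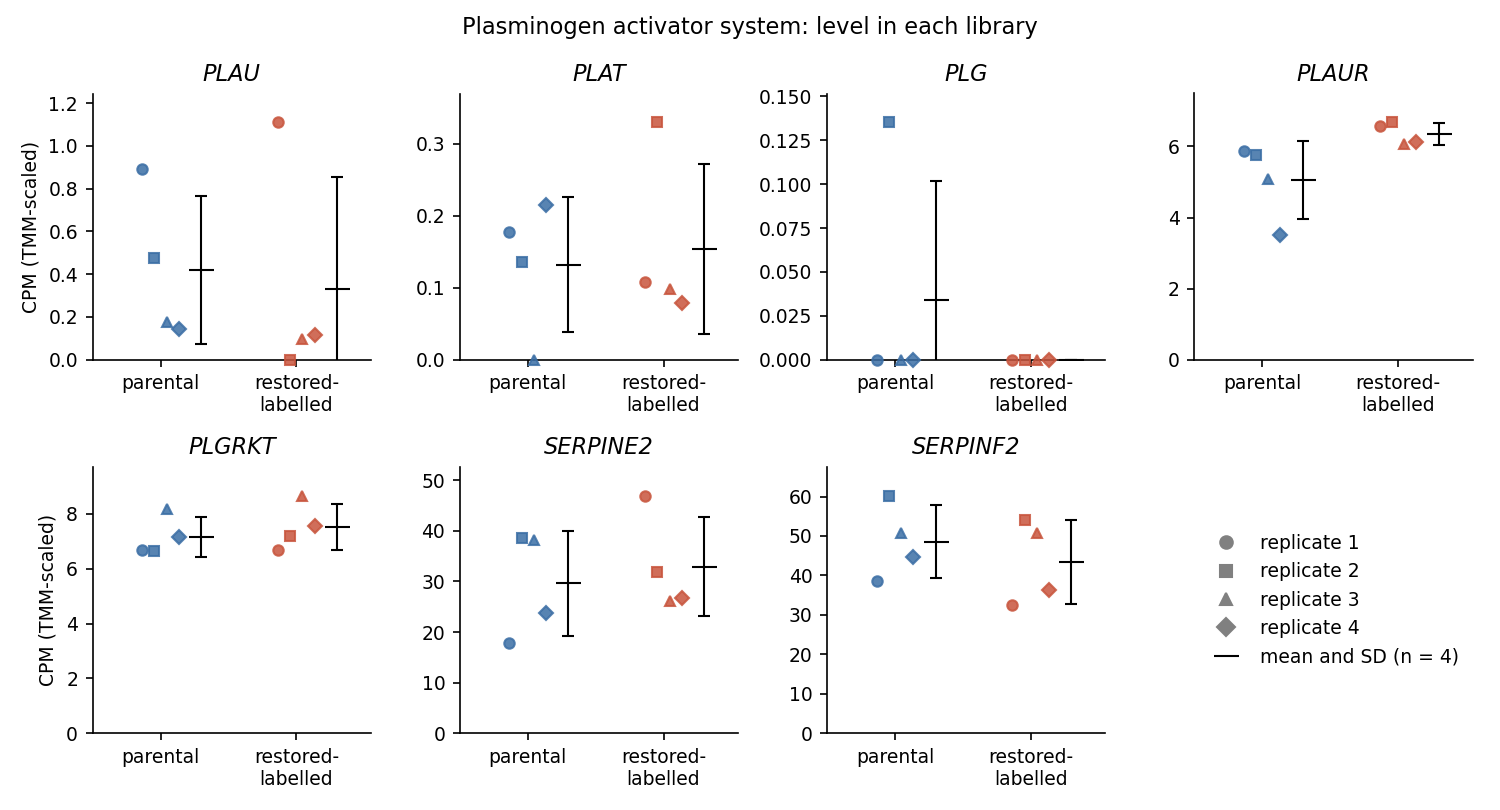
Level of the 7 genes in each library, in CPM on linear axes that start at 0 and differ between panels. Points are single libraries with the replicate number as marker shape, and the bar beside them is the mean and SD of 4 libraries, drawn no lower than 0. PLAUR is the panel in which the groups do not overlap, and the high PLAU point of the restored-labelled group, 1.11 CPM, is replicate 1.

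Compared per length, as CPM per kilobase of annotated exon, the 7 genes kept 1 order of group means in both groups. SERPINF2 led at 20.7 ± 3.95 in the parental and 18.5 ± 4.56 in the restored-labelled libraries (SD, n = 4). PLGRKT followed at 4.80 ± 0.487 and 5.04 ± 0.569, then SERPINE2 at 3.33 ± 1.17 and 3.71 ± 1.09. PLAUR lay lower at 1.13 ± 0.244 and 1.43 ± 0.0699. The messages of a plasmin inhibitor, a plasminogen receptor, an activator inhibitor and the urokinase receptor were thus all present.

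The activators and the zymogen formed the low end of the order. PLAU stood at 0.143 ± 0.117 and 0.113 ± 0.177 CPM per kilobase, PLAT at 0.0199 ± 0.0142 and 0.0232 ± 0.0179, and PLG at 0.00531 ± 0.0106 and 0. Neighbours in the order whose libraries overlapped were PLAT and PLG in the parental group, and PLGRKT with SERPINE2 and PLAU with PLAT in the restored-labelled group. The other neighbouring pairs did not overlap within a group. The place of PLAU above PLAT in the restored-labelled group rested on replicate 1: without it the means were 0.0244 for PLAU and 0.0255 for PLAT. Leaving out any other single library did not change the order of the means.

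**Figure D2:**
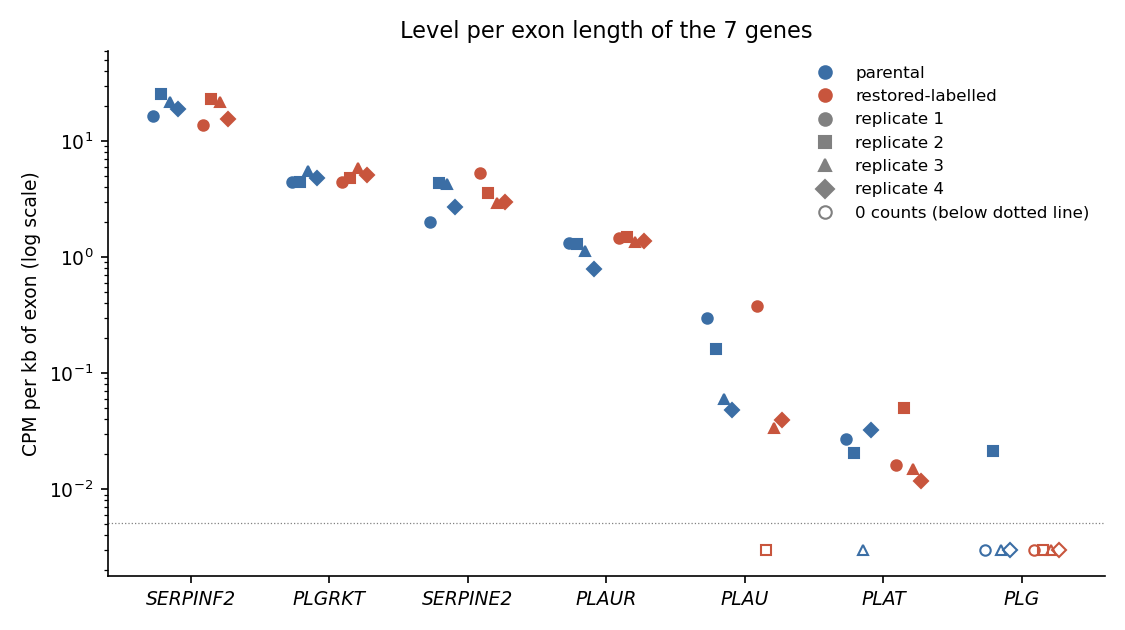
CPM per kilobase of exon of the 7 genes on a log axis, ordered by level, with 1 point per library, the group as colour and the replicate as shape. Open points below the dotted line had 0 counts. SERPINF2, at means of 20.7 and 18.5, is at the top, and PLAU, PLAT and PLG lie below PLAUR in every library.

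Ratios within a library cancel the scaling of libraries, and 3 were computed from counts with 0.5 added: PLAU to its receptor gene PLAUR, PLAU to PLAT, and PLAU to its inhibitor gene SERPINE2. The log2 ratio of PLAU to PLAUR was -3.75 ± 0.846 in the parental and -5.25 ± 1.99 in the restored-labelled libraries (SD, n = 4), a difference of -1.50 (exact permutation p = 0.229). For PLAU to PLAT the difference was -1.25 (exact permutation p = 0.457) and for PLAU to SERPINE2 -1.33 (exact permutation p = 0.314). Adjusted over the 3 ratios, each exact permutation p was 0.457. PLAU is the numerator of all 3, so they share its few counts. Without restored-labelled replicate 1 the differences were -2.40, -2.27 and -2.07, with adjusted exact permutation p-values of 0.0857, 0.114 and 0.0857. Without restored-labelled replicate 2, which had 0 PLAU counts, they were -0.80, -0.15 and -0.66, with adjusted exact permutation p-values of 0.857, 0.914 and 0.857. Without parental replicate 1 the PLAU to SERPINE2 difference was -0.67 (adjusted exact permutation p = 0.600). The size of all 3 differences thus rested on single libraries.

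Around the members, a pathway list of 65 genes was drawn up. It held genes with known roles in the plasmin pathway and, upstream, 12 AP-1, ETS and related factors. Of the 65, 51 were tested. In the restored-labelled group 13 rose, 9 fell and 29 did not pass the test. That is 43.1% called, beside 19.2% of all tested genes, with a median log2 fold change of 0.0067 beside 0.0026. The list was chosen with earlier results of these data known. This share and those by role below therefore cannot show an excess of changes in the pathway. The numbers depended on single libraries: 8 rose and 5 fell without restored-labelled replicate 3, 8 and 3 without restored-labelled replicate 4, and 9 and 4 without parental replicate 2.

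Beside PLGRKT, 5 genes of other plasminogen-binding proteins were tested: 2 fell and 0 rose, a share of 40% beside 19.2% of all tested genes. Their median log2 fold change was -0.09. ENO1, a glycolytic enzyme that also binds plasminogen at the cell surface, fell from 2691 ± 316 to 1932 ± 107 CPM (log2 fold change -0.48, edgeR adjusted p = 0.0339), and HMGB1, a nuclear protein that can act outside cells, from 282 ± 24.9 to 215 ± 12.1 CPM (-0.39, adjusted p = 0.0362). S100A10, the plasminogen-binding partner of annexin A2, was at -0.03 (edgeR adjusted p = 0.871) and KRT8, a keratin whose exons overlap KRT18 on the other strand, at -0.09 (adjusted p = 0.703).

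Beside PLAUR, 16 partners of the urokinase receptor and endocytic receptors of activator-inhibitor complexes were listed, of which 11 were tested. In this role 4 rose and 1 fell, a share of 45.5% beside 19.2% of all tested genes. VTN, whose product vitronectin is a ligand of the urokinase receptor and of integrins, rose from 429 ± 76.8 to 1016 ± 136 CPM (SD, n = 4; log2 fold change 1.24, SE 0.16, edgeR adjusted p = 0.000701). The integrin subunit genes ITGA3 and ITGB1 rose by 1.59 and 1.11 on the log2 scale (edgeR adjusted p = 0.00278 and 0.0178). LRP2 (megalin), an endocytic receptor, fell from 23.7 ± 11.5 to 7.53 ± 3.42 CPM (log2 fold change -1.64, edgeR adjusted p = 0.0183), although parental replicate 1, at 8.45 CPM, lay within the restored-labelled range.

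Beside SERPINE2 and SERPINF2, 8 further inhibitors were listed, of which 6 were tested. Here 2 rose and 1 fell, a share of 50% beside 19.2% of all tested genes. SERPINA5, the protein C inhibitor, which also inhibits urokinase, measured 0.979, 1.35, 0.980 and 0.429 CPM in the parental and 12.2, 10.2, 8.67 and 8.59 in the restored-labelled libraries. Every restored-labelled library was far above the parental ones, with a fitted difference of 10.5-fold (log2 fold change 3.40, SE 0.31, edgeR adjusted p = 7.48e-05). It shares 53 exonic bases with SERPINA4 on the same strand, and how such reads were assigned is not given in the sources used here. CPB2 encodes a carboxypeptidase that protects fibrin from plasmin, and it fell from 51.8 ± 19.9 to 12.7 ± 5.21 CPM (log2 fold change -2.03, edgeR adjusted p = 0.00278). SERPING1, the C1 inhibitor, measured 87.6, 18.3, 14.9 and 10.6 CPM in the parental and 165, 118, 111 and 88.8 CPM in the restored-labelled libraries. Its log2 fold change was 1.89 (edgeR adjusted p = 0.0402) with all libraries and 3.05 without parental replicate 1, and the call was lost when any other single library was left out (adjusted p up to 0.110). A2M, a broad protease trap, was at a log2 fold change of -0.52 (edgeR adjusted p = 0.147).

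Beside PLAU and PLAT, 8 proteases able to activate plasminogen or pro-urokinase, directly or upstream, were listed, of which 7 were tested. Among them 2 rose and 1 fell, a share of 42.9% beside 19.2% of all tested genes. HPN, which encodes the hepatocyte membrane protease hepsin, fell from 37.6 ± 16.3 to 15.4 ± 6.75 CPM (log2 fold change -1.30, edgeR adjusted p = 0.0329). F12, the contact factor XII, and KLKB1, plasma prekallikrein, rose by 0.74 and 1.11 on the log2 scale (edgeR adjusted p = 0.0296 and 0.0333); each shares exonic bases with a neighbour, GRK6 and CYP4V2. CTSB (cathepsin B) was at 0.51 (edgeR adjusted p = 0.0540), and it passed with total counts only (0.0374), without an expression filter (0.0298), without restored-labelled replicate 1 (0.0157), by DESeq2 (0.0249) and by limma-voom (0.0484).

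Downstream of plasmin, 16 substrates, matrix proteases and their inhibitors were listed, of which 10 were tested. Of these, 5 rose and 2 fell, a share of 70% beside 19.2% of all tested genes. The median log2 fold change was 0.98 beside 0.0026 over all tested genes. The fibrinogen chains, whose fibrin polymer is the best-known plasmin substrate, rose together. Their genes lie close to each other on chromosome 4, between 154562956 and 154612967. FGB measured 768 ± 102 against 3175 ± 612 CPM (SD, n = 4; log2 fold change 2.05, SE 0.18, edgeR adjusted p = 6.39e-05), and FGG and FGA rose by 1.60 and 1.19 on the log2 scale (adjusted p = 0.000234 and 0.00115). MMP14, a membrane-anchored collagenase that activates other matrix proteases, measured 19.2, 13.7, 13.0 and 7.80 CPM in the parental and 111, 60.8, 75.2 and 65.5 CPM in the restored-labelled libraries. The groups were far apart, at a fitted log2 difference of 2.54 (SE 0.27, edgeR adjusted p = 0.000222). The secreted proteases of the list, MMP1, MMP2, MMP3, MMP9 and MMP13, stayed at or under 0.466 CPM in every library and were not tested.

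Upstream of PLAU and PLAUR, 12 AP-1, ETS and related factors were listed and tested: 0 rose and 2 fell, a share of 16.7% beside 19.2% of all tested genes. FOSL1, an AP-1 subunit, measured 85.5, 89.1, 48.1 and 54.7 CPM in the parental and 34.5, 12.4, 4.53 and 5.46 in the restored-labelled libraries. Its log2 fold change was -2.28 (SE 0.55, edgeR adjusted p = 0.0173), and the highest restored-labelled value was replicate 1, as for PLAU. JUN, its binding partner, fell by 0.73 on the log2 scale (edgeR adjusted p = 0.0358), while ETS2 was at -0.30 (adjusted p = 0.215) and JUND at 0.27 (adjusted p = 0.331).

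Leaving out 1 library ended several of these calls. Parental replicate 2 ended those of ENO1, HMGB1, LRP2, F12, HPN, KLKB1 and JUN, parental replicate 3 those of ENO1, HMGB1, F12 and KLKB1, and parental replicate 4 those of HMGB1, F12, KLKB1 and JUN. Restored-labelled replicate 4 ended those of ENO1, HMGB1, ITGB1, LRP2, HPN, KLKB1, FOSL1 and JUN, replicate 3 those of ENO1, HMGB1, LRP2, F12, KLKB1 and JUN, replicate 2 those of ENO1, HMGB1, F12 and KLKB1, and replicate 1 that of JUN. The largest edgeR adjusted p among these was 0.113, that of HMGB1 without restored-labelled replicate 4. Testing without an expression filter ended the calls of ENO1 and HMGB1, scaling by total counts that of HMGB1, and limma-voom that of KLKB1. VTN, ITGA3, SERPINA5, CPB2, FGA, FGB, FGG and MMP14 passed in every such fit.

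**Figure D3:**
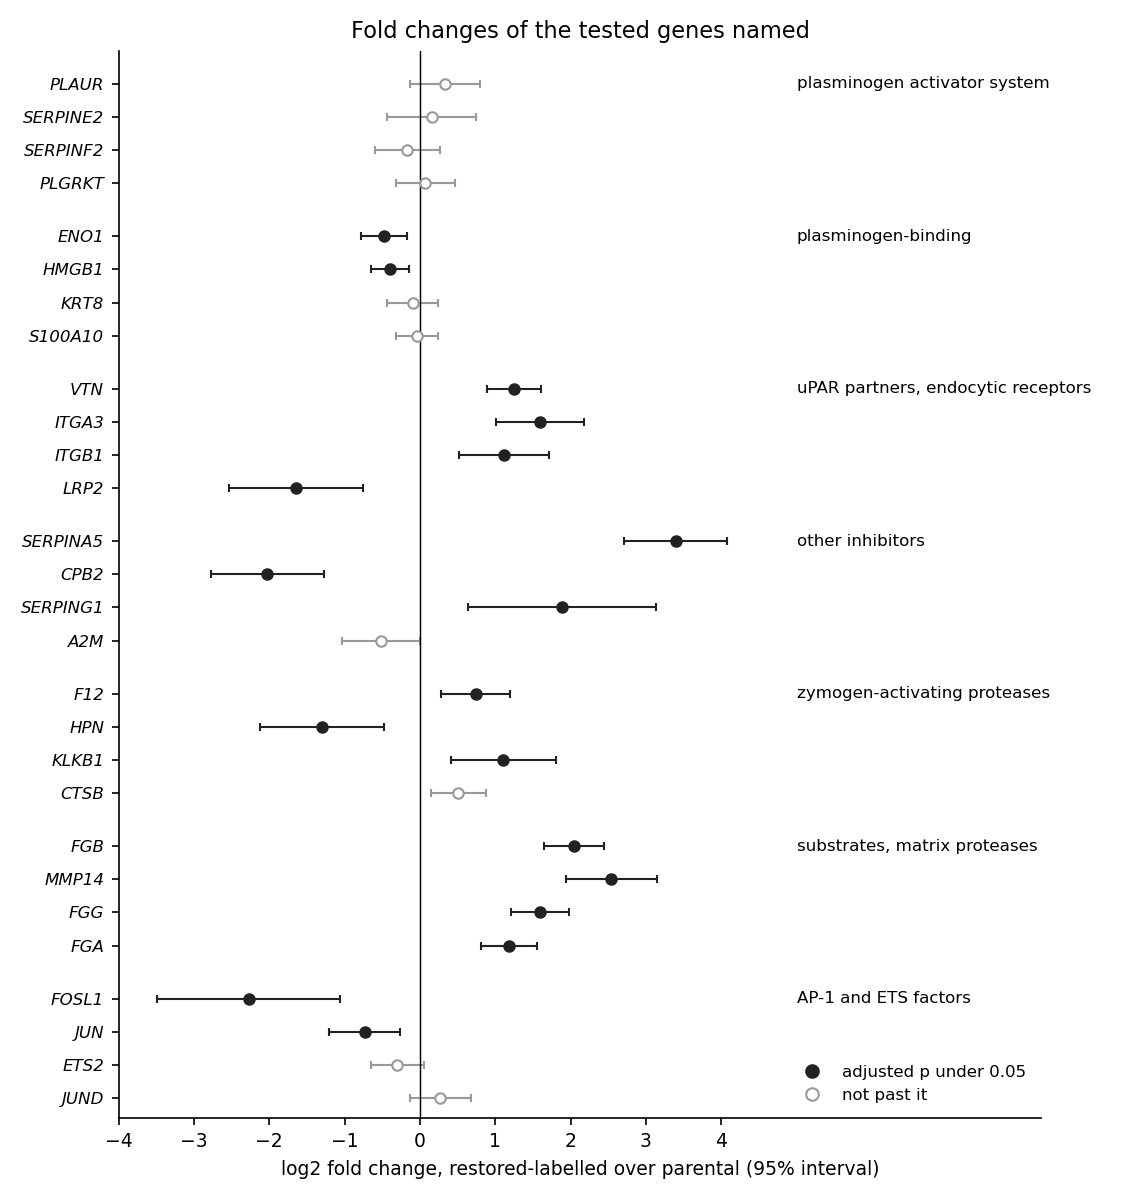
Log2 fold changes, restored-labelled over parental, with 95% intervals for the 4 tested members and for the 4 genes of each pathway role with the smallest p-values. Filled points passed an edgeR adjusted p of 0.05. The 4 member points, from -0.17 to 0.33, are open, and SERPINA5 at 3.40 is farthest from 0.

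**Figure D4:**
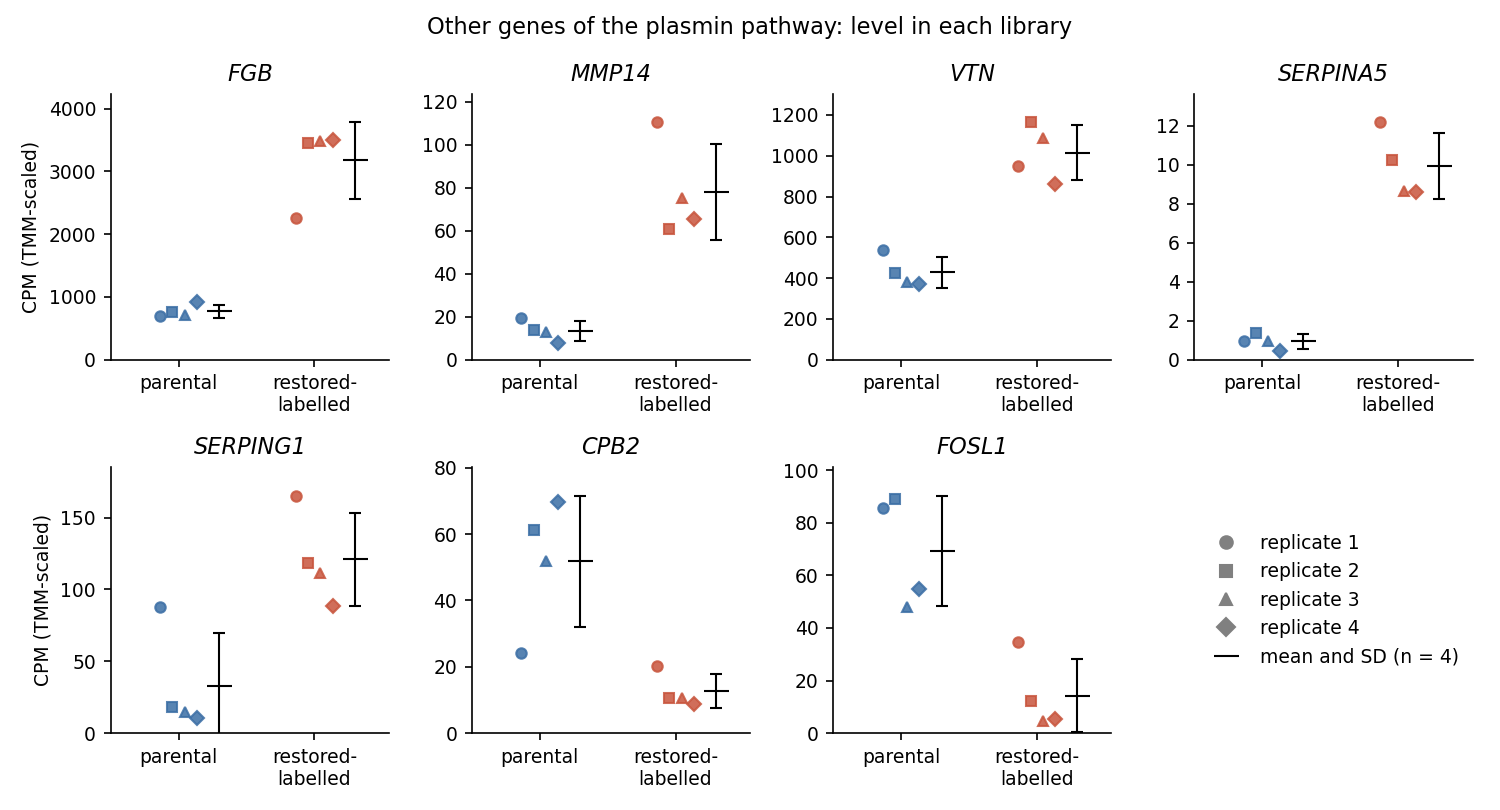
CPM in each library, on linear axes from 0, of 7 genes of the pathway list described in the text. Markers show replicates, and bars the mean and SD of 4 libraries, drawn no lower than 0. MMP14, VTN, FGB and SERPINA5 are higher in every restored-labelled library, and the parental SERPING1 point at 87.6 CPM is replicate 1.

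Markers of other cell types were checked beside these genes, since several are also made by stromal or blood cells. Of 5 endothelial markers 1 was tested: PECAM1 rose from 5.18 ± 0.951 to 48.2 ± 10.3 CPM (edgeR adjusted p = 8.45e-06), and the endothelial sum of 4.58 to 6.77 CPM in the parental and 34.1 to 58.5 in the restored-labelled libraries was nearly all PECAM1. CDH5, VWF and KDR had at most 4, 6 and 2 counts in a library, and TEK had 0 throughout. Of 5 fibroblast markers 2 were tested, 0 rose and 1 fell, with sums of 2.67 to 3.15 and 1.18 to 4.59 CPM, and COL1A2 and DCN never exceeded 1 count. Of 5 leukocyte and macrophage markers 2 were tested and 0 passed. Their sums of 422 to 949 and 673 to 921 CPM were nearly all LYZ, CSF1R had 0 counts, and PTPRC at most 2. The part of these markers, and of the lower hepatocyte sum, in the results above was not tested. In bulk RNA, fewer cells with a message and less message per cell cannot be told apart.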

How the data were processed

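RNA was sequenced from 8 libraries, 4 parental and 4 restored-labelled, grouped by the sample titles. The labels' protocols name column purification of total RNA and an mRNA library kit. Per the submitters' processing notes, bcl2fastq, fastp 0.23.1, STAR 2.7.4 and GRCh38 were used; their roles, the counter, its annotation and its strand setting are not given in the sources used here. The authors deposited raw counts per gene, and 0 columns were without a sample.

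Counts were tested in R 4.3.3 with edgeR 4.0.16: filterByExpr (minimum count 10, minimum total 15), trimmed-mean (TMM) scaling, glmQLFit and glmQLFTest without covariates, and Benjamini-Hochberg adjustment over 14289 genes at 0.05. The standard error is |log2 fold change| divided by the root of the F statistic. CPM uses scaled totals, log2 CPM a prior count of 2. No libraries were duplicates: within-group chi-square per degree of freedom was at least 9.46. The tests were tried on simulated data first.

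Identifiers were matched to GENCODE release 29 (57943 of 58206). Exon length is the union of annotated exons. Members and lists were chosen with earlier results of these data known. Named genes are the members, AXIN1, the 4 genes of each role with the smallest p, and the 3 genes most like PLAU and PLAUR with a mean of at least 1 CPM; PLAU was not in the fit, so none are given for it. Alternatives were other scalings, filters and thresholds, DESeq2 1.42.0, limma-voom (limma 3.58.1), thinned counts, a replicate block and leaving out each library.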

Additional observations from a re-analysis of the deposited data

Results flagged for a closer look

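Of 14 groups of 4 libraries examined for a library far from the others, 3 held one. For normally distributed values chance alone gives about 1 in 20. That rate need not hold for PLAU and PLAT, which had few counts, so no excess over chance is claimed. PLAU was at 1.11 CPM in restored-labelled replicate 1, against 0 to 0.117 CPM in the other 3 libraries of that group. PLAT was at 0.330 CPM in restored-labelled replicate 2, against 0.0781 to 0.108 CPM in the others, and that value is 4 counts. AXIN1 was at 37.7 CPM in restored-labelled replicate 4, against 47.6 to 48.2 CPM in the others.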

How the results depend on the processing

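PLAUR and SERPINF2 kept their direction and stayed past no threshold under all 17 alternatives, with log2 fold changes of 0.19 to 0.42 and -0.29 to -0.05 and PLAUR adjusted p-values of 0.170 to 0.546. Leaving out 1 library gave -0.071 to 0.31 for SERPINE2, -0.0024 to 0.14 for PLGRKT, -0.17 to 0.0060 for KRT8 and -0.084 to 0.030 for S100A10, so these directions turned; S100A10 also turned with total counts only (0.047). In the fit over every gene with a count the same omissions gave -2.20 to 0.47 for PLAU and -0.44 to 0.39 for PLAT, with PLAU above 0 without parental replicate 1 or restored-labelled replicate 2, 3 or 4, and PLAT below 0 without parental replicate 3 or restored-labelled replicate 2. TIMP1 ranged from -0.83 to 2.73. The cause was not tested. VTN, ITGA3, SERPINA5, CPB2, MMP14, FGA, FGB, FGG and TGFB1 passed under all 17.

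An adjusted p under 0.01 left 964 genes called, 566 higher and 398 lower, and 7 higher and 2 lower in the pathway list. Leaving out 1 library gave 1394 to 3523 calls, 797 to 1918 higher and 597 to 1605 lower, and 8 to 14 higher and 3 to 10 lower in the list. Over all tested genes the replicate numbers showed no pairing of the libraries. Same-numbered deviations correlated at -0.063, 0.0067, -0.032 and 0.227, and 1 of 8 libraries matched its own number best. Whether same-numbered libraries shared a batch that moved some genes was not tested. With the replicate block 2033 genes were called, 1101 higher and 932 lower, the list gave 13 higher and 4 lower, and 0 of the 4 members passed. Under the block the named genes ENO1 (adjusted p = 0.0855), HMGB1 (0.0974), LRP2 (0.0667), F12 (0.0605), HPN (0.0813), LRP1 (0.0539) and FN1 (0.0518) did not pass, and CTSB (0.0448) and TIMP1 (log2 fold change 0.98, adjusted p = 0.0138) did. Scaling by total counts moved the median log2 fold change of all genes to 0.09. In a library, 3 counts stand for up to 0.267 CPM; PLAT had more than 3 counts in 1 library and PLG in 0. PLAU differed between libraries of 1 group by more than counting error, with an exact Poisson interval of 0.756 to 1.58 CPM in restored-labelled replicate 1 against 0.0280 to 0.201 in the other 3 pooled.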

Other observations

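TIMP1, an inhibitor of matrix metalloproteinases on the pathway list, was singled out after its values were seen. In the order of replicate numbers, the parental libraries measured 32.5, 4.33, 2.58 and 2.0 CPM and the restored-labelled ones 61.4, 6.69, 6.06 and 4.61 CPM, so replicate 1 was the highest library of each group, as it was for PLAU. Its log2 fold change was 0.96 with all libraries (edgeR adjusted p = 0.538), 2.73 without parental replicate 1 (adjusted p = 0.0454) and -0.83 without restored-labelled replicate 1 (adjusted p = 0.517).

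Called genes of the pathway list outside the naming rule were singled out after their values were seen. LRP1, which clears urokinase bound to inhibitors, rose from 176 ± 26.9 to 264 ± 35.0 CPM (log2 fold change 0.58, edgeR adjusted p = 0.0206), and MMP15, a membrane-type metalloproteinase, from 63.8 ± 20.8 to 114 ± 16.6 CPM (0.84, adjusted p = 0.0257). FN1 (fibronectin) fell from 1059 ± 366 to 457 ± 115 CPM (log2 fold change -1.21, edgeR adjusted p = 0.0121), with parental replicate 1, at 546 CPM, inside the restored-labelled range. TGFB1, whose latent product plasmin can release, fell from 139 ± 14.0 to 92.4 ± 6.92 CPM (log2 fold change -0.59, edgeR adjusted p = 0.00662). The LRP1 call was lost without parental replicate 4 or restored-labelled replicate 3 or 4, and the MMP15 call without parental replicate 2 or 3 or restored-labelled replicate 3 or 4.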
